A study of Homo sapiens with 6 samples.

Results

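The 8 genes HNF4A, FOXA1, FOXA2, FOXA3, ONECUT1, ONECUT2, CEBPA and CEBPB encode liver-enriched transcription factors, and their RNA was measured in TFK1 cells with and without STUB1 overexpression. They were found by gene symbol in a table of 23569 genes, and all 8 were listed and lay above the minimum level used for tests. They were chosen by name with their own FPKM difference between oeSTUB1 and oeNC already known, so these differences are described here with no test. TFK1 is a human cell line from an extrahepatic bile duct carcinoma. The oeNC group held 3 RNA-seq libraries of TFK1 cells with the genotype negative control, and the oeSTUB1 group held 3 libraries of TFK1 cells overexpressing STUB1, with no further treatment in either group. Per the methods of the study, the STUB1 coding sequence was placed in the pHAGE vector and delivered with lentivirus, and transduced cells were kept under puromycin. Each group was 1 transduced population as far as the text tells, so STUB1 overexpression and other differences between the populations cannot be told apart. The methods of the study say in general that experiments were repeated independently, but whether these 3 libraries a group came from separate cultures is not stated, so p-values measure the spread between these libraries, which may be technical.

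In hepatocytes these proteins bind promoters and enhancers together and regulate one another's genes. FOXA proteins are pioneer factors that bind closed chromatin, HNF4A is a nuclear receptor that drives many metabolic and secretory genes, ONECUT proteins act in the early liver and biliary tree, and C/EBP proteins are leucine zipper factors of metabolism and of the acute phase response. Bile duct cells and hepatocytes come from a common embryonic precursor, and biliary cells usually hold less HNF4A and CEBPA than hepatocytes do.

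STUB1, a chaperone-associated ubiquitin ligase and the overexpressed gene, gave 32.9, 33.0 and 30.9 FPKM for oeNC replicates 1 to 3 and 61.4, 75 and 61.9 FPKM for oeSTUB1 replicates 1 to 3. FPKM counts fragments relative to gene length and library size. The oeSTUB1 mean was 2.05 times the oeNC mean (log2 fold change 1.03, SE 0.10, adjusted p = 0.00064 from limma over 15353 genes). Library totals recovered from the table lay between 33106564 and 36744521 fragments. The oeSTUB1 replicate 2 library stood apart. Its chi-square per degree of freedom against the other oeSTUB1 libraries was 76.7 and 82.6, whereas all other replicate pairs lay between 3.48 and 10.4. Against the mean of oeSTUB1 replicates 1 and 3, its median FPKM ratio was 1.40 for genes under 1000 bases and 0.722 for genes of at least 8000 bases. Values are therefore given with and without it.

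Of the 8 genes, 7 had a promoter in the RefSeq table of assembly GRCh38.p14, which gives 250 bases before and 50 after the annotated start. FOXA2 had none. Promoters are shown for HNF4A and FOXA1, whose groups did not overlap in level, and for CEBPA, the gene with the most CpG, whose groups overlapped. The study asks about DNA methylation downstream of STUB1, and CpG, the bases that can be methylated, are in capitals. Each is written 5′ to 3′ on the gene's own strand.
HNF4A: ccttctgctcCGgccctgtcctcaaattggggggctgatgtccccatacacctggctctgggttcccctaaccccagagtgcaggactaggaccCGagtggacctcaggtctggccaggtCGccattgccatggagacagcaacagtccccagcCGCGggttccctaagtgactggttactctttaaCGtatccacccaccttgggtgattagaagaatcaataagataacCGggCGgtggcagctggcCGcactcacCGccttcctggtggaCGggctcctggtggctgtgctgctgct
FOXA1: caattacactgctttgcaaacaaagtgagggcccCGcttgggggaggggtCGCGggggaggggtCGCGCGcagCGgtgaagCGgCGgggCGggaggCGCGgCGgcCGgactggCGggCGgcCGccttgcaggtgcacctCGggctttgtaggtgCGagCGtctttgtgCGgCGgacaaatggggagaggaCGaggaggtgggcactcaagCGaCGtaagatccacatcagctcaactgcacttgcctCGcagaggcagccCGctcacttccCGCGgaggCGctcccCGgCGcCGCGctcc
CEBPA: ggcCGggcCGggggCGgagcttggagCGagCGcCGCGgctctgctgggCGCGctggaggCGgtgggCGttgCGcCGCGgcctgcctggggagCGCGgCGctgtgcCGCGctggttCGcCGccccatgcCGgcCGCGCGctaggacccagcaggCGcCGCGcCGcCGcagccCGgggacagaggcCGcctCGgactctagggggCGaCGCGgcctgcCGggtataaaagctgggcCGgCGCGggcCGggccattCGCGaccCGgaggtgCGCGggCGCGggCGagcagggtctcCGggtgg

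The HNF4A window lay at chr20:44355449-44355748 on the plus strand and held 11 CpG. This is the upstream start of HNF4A, and the gene also has a downstream promoter, which is the one used in adult liver. A level per gene does not tell the promoters apart. The FOXA1 window, at chr14:37595200-37595499 on the minus strand, held 34 CpG, and the CEBPA window, at chr19:33302485-33302784 on the minus strand, held 50. The median over all 27305 promoters of the table was 14 CpG, so that HNF4A was the 1 gene of the 7 below it. FOXA3 had 37, ONECUT1 39, ONECUT2 24 and CEBPB 31 CpG. No methylation was measured in these libraries.

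Letters that these proteins are known to bind were searched on both strands of the 7 windows. ATTGAT, the core of ONECUT sites, was found in 1 of 7 windows and in 6.40% of all promoters. The match was in HNF4A, as the reverse complement ATCAAT at bases 218 to 223 of the sequence shown. TGTTTAC or TATTTAC for FOXA was in 0 of 7 windows and in 6.05% of all promoters. TTGCNNAA for C/EBP was in 0 of 7 and in 10.6%, and CAAAGTCCA for HNF4 in 0 of 7 and in 0.359%. No motif overlapped another in these windows.

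HNF4A, the nuclear receptor of the group, was lower in all 3 oeSTUB1 libraries than in any oeNC library. It lies on chromosome 20, from 44355700 to 44434596 on the plus strand (GRCh38, GENCODE 29 annotation). The oeNC libraries held 11.1, 11.3 and 10.1 FPKM and the oeSTUB1 libraries 5.44, 4.30 and 5.87 FPKM. These were 2837, 2882 and 2724 fragments against 1381, 1050 and 1478. The groups did not overlap, and the lowest value was that of oeSTUB1 replicate 2. The group means were 10.8 ± 0.658 and 5.2 ± 0.808 FPKM (SD, n = 3 each), so that oeSTUB1 held 48.1% of the oeNC level. On the log2(FPKM + 0.1) scale the difference was -1.05 with an SE of 0.13. Without oeSTUB1 replicate 2 it was -0.92, and oeSTUB1 held 52.3% of the oeNC level. Of the 15353 tested genes, 403 had a lower log2 fold change than HNF4A, and 5.48% had a larger one in either direction. That share was 18.2% for FOXA1, 20.7% for ONECUT2, 41.8% for FOXA3, 43.9% for CEBPB, 52.6% for FOXA2, 83.8% for ONECUT1 and 87.0% for CEBPA. These ranks are a description only, because the genes were chosen with these differences known.

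FOXA1, a pioneer factor that opens chromatin for nuclear receptors, was the other gene whose groups did not overlap. It lies on chromosome 14, from 37589984 to 37596059 on the minus strand. Its FPKM were 7.12, 7.19 and 8.49 in oeNC and 4.77, 5.08 and 6.17 in oeSTUB1. Replicate 3 was the highest library in both groups, and the highest oeSTUB1 value stayed below the lowest oeNC value. The means were 7.60 ± 0.772 and 5.34 ± 0.738 FPKM (SD, n = 3 each). The log2 difference was -0.51 (SE 0.13) and -0.47 without oeSTUB1 replicate 2, when oeSTUB1 held 72.0% of the oeNC level. In all, 2 of the 8 genes had groups that did not overlap, both with the lower level in oeSTUB1. Over all tested genes the groups did not overlap in 38.8%, with the lower level in oeSTUB1 in 17.3%. Nothing is read from this count, because the comparison was known when the genes were picked.

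FOXA2, the paralog that acts first in endoderm, had overlapping groups. It lies on chromosome 20, from 22581005 to 22585455 on the minus strand. The oeNC libraries held 12.7, 14.0 and 18.9 FPKM and the oeSTUB1 libraries 12.2, 14.1 and 12.9 FPKM. The oeNC replicate 3 library stood above the other 5, which lay within 12.2 to 14.1 FPKM. The log2 difference was -0.20 (SE 0.15), and over the fits that left out each library it ran from -0.31 to -0.03, the last without oeNC replicate 3. FOXA3, a paralog with a role in hepatocyte glucose handling, gave 1.41, 1.58 and 2.35 FPKM in the oeNC libraries and 1.15, 1.63 and 1.58 FPKM in the oeSTUB1 ones. It lies on chromosome 19, from 45863989 to 45873797 on the plus strand. Here too oeNC replicate 3 was the highest library and the groups overlapped. The log2 difference of FOXA3 was -0.26 (SE 0.22), and -0.05 without oeNC replicate 3.

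The height of oeNC replicate 3 was shared by other genes. Its FPKM over the mean of oeNC replicates 1 and 2 was 1.41 for FOXA2, 1.57 for FOXA3, 1.19 for FOXA1 and 1.15 for CEBPB, against a median of 1.01 over genes. HNF4A went the other way, with 0.899. DDIT3, a C/EBP family stress factor, had a ratio of 4.79 in the same library, with 20.9 FPKM against 3.63 to 6.74 FPKM in the other 5. GDF15, a stress cytokine, had a ratio of 2.01, and DDIT4, a stress-induced inhibitor of mTORC1, one of 1.59. GDF15 and DDIT4 were picked for their correlation with FOXA2 and FOXA3 over these libraries. A high value in oeNC replicate 3 was thus built into their choice. The part of this library's state in the FOXA2 and FOXA3 differences was not tested beyond leaving it out.

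The ONECUT genes had the lowest mean FPKM of the 8, although ONECUT2 overlapped FOXA3 in both groups. Neither ONECUT gene separated oeNC from oeSTUB1. ONECUT1, also called HNF6 and needed for biliary development, lies on chromosome 15, from 52756989 to 52791078 on the minus strand. The oeNC libraries had 0.530, 0.670 and 0.50 FPKM, and the oeSTUB1 libraries 0.547, 0.458 and 0.814 FPKM. These rest on 80, 101 and 80 fragments against 82, 66 and 121. The lowest and the highest of the 6 values were both in oeSTUB1. The log2 difference of 0.06 was smaller than its SE of 0.22 and changed sign among the fits that left out a library (-0.14 to 0.21).

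ONECUT2, a paralog with overlapping roles in liver and biliary precursors, lies on chromosome 18, from 57435685 to 57491297 on the plus strand. The oeNC libraries had 1.44, 1.70 and 1.74 FPKM, and the oeSTUB1 libraries 1.45, 0.682 and 1.52 FPKM. A single library, oeSTUB1 replicate 2, lay below the other 5, and oeSTUB1 replicates 1 and 3 fell within the oeNC range. With that library the log2 difference was -0.46 (SE 0.27), and without it -0.12, with 91.0% of the oeNC level. ONECUT2 was the longest gene of the 8, at 16433 bases, and oeSTUB1 replicate 2 held 0.459 of the mean of replicates 1 and 3 for it. The part of gene length in this value was not tested beyond a correction of each library for length, which gave -0.33.

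CEBPA, the C/EBP factor that maintains the differentiated hepatocyte, was near the same mean in both groups. It lies on chromosome 19, from 33299934 to 33302564 on the minus strand. The oeNC libraries were close together at 4.51, 4.55 and 4.4 FPKM, and the oeSTUB1 libraries lay on both sides of them at 3.74, 5.73 and 4.66 FPKM. The means were 4.49 ± 0.0803 and 4.71 ± 0.996 FPKM (SD, n = 3 each). The log2 difference was 0.05 (SE 0.15) and turned to -0.10 without oeSTUB1 replicate 2. CEBPB, the C/EBP factor of inflammation and the acute phase, lies on chromosome 20, from 50190734 to 50192689 on the plus strand. The oeNC libraries gave 54.1, 52.7 and 61.6 FPKM, and the oeSTUB1 libraries 39.3, 57.0 and 47.2 FPKM. The groups overlapped through oeSTUB1 replicate 2 alone, the 1 oeSTUB1 library above the lowest oeNC library. The log2 difference was -0.24 (SE 0.14), and without that library it was -0.38, at 77.1% of the oeNC level.

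**Figure D1:**
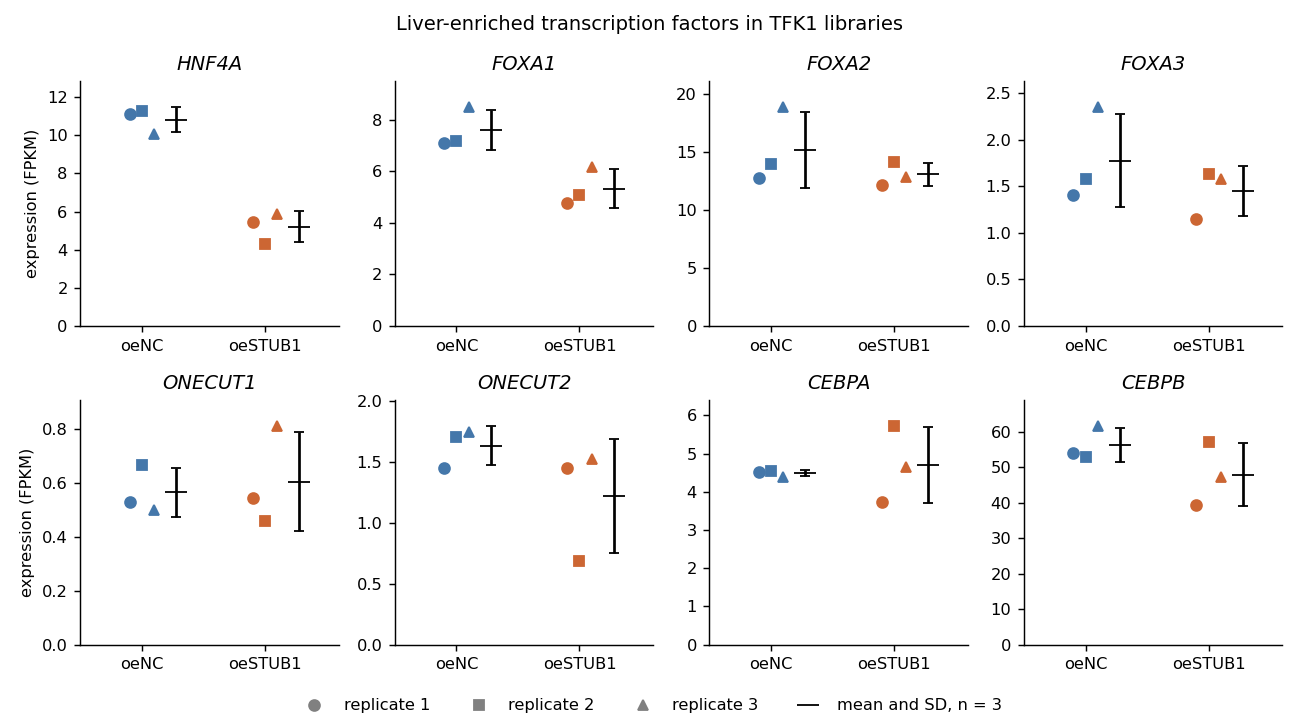
FPKM (y axis, linear, from 0, a separate scale for each gene) of the 8 genes in each oeNC and oeSTUB1 library, with symbols for replicate numbers and black bars for mean and SD (n = 3). HNF4A and FOXA1 separate the groups, at 10.1 to 11.3 against 4.30 to 5.87 FPKM and at 7.12 to 8.49 against 4.77 to 6.17 FPKM, and the other 6 genes overlap.

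Counted together, 6 of the 8 genes had a lower mean FPKM in oeSTUB1 and 2 had a higher one. On the chromosomes that carry them, 42.7% to 47.3% of tested genes had a log2 fold change below 0. Neither this count nor the median below is read as a result, because the comparison was known when the genes were picked. The median log2 difference of the 8 was -0.25, beside 0.02 over all tested genes. Without oeSTUB1 replicate 2 these were -0.30 and 0.03. In that setting CEBPA moved to the lower side and ONECUT1 remained higher. Correction for gene length left HNF4A at -1.0 and FOXA1 at -0.52, and gave -0.24 for FOXA2, -0.32 for FOXA3 and -0.31 for CEBPB.

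**Figure D2:**
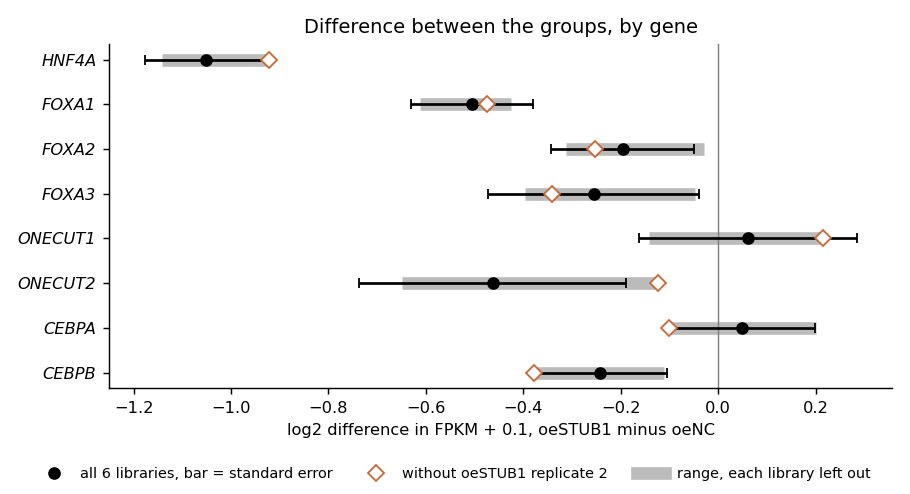
Difference on the log2(FPKM + 0.1) scale (x axis, oeSTUB1 minus oeNC) for each gene, with dots and bars for the value and SE from all 6 libraries, open diamonds for the value without oeSTUB1 replicate 2 and grey bars for the range when each library was left out. HNF4A is at -1.05 and FOXA1 at -0.51, and ONECUT2 moves from -0.46 to -0.12 without oeSTUB1 replicate 2. These differences were known when the genes were picked, and no test is given for them.

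The 8 genes took the same side of the length trend in oeSTUB1 replicate 2 as other genes of their length. Its ratio to the mean of replicates 1 and 3 was 1.36 for CEBPA, 1.32 for CEBPB, 1.2 for FOXA3 and 1.13 for FOXA2, the 4 shortest of the genes. It was 0.928 for FOXA1, 0.761 for HNF4A and 0.673 for ONECUT1. Across the 8 genes Spearman's rho between length and this ratio was -0.881, and across 11375 genes of at least 1 FPKM it was -0.706. These points share 3 libraries and are given as a description.

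**Figure D3:**
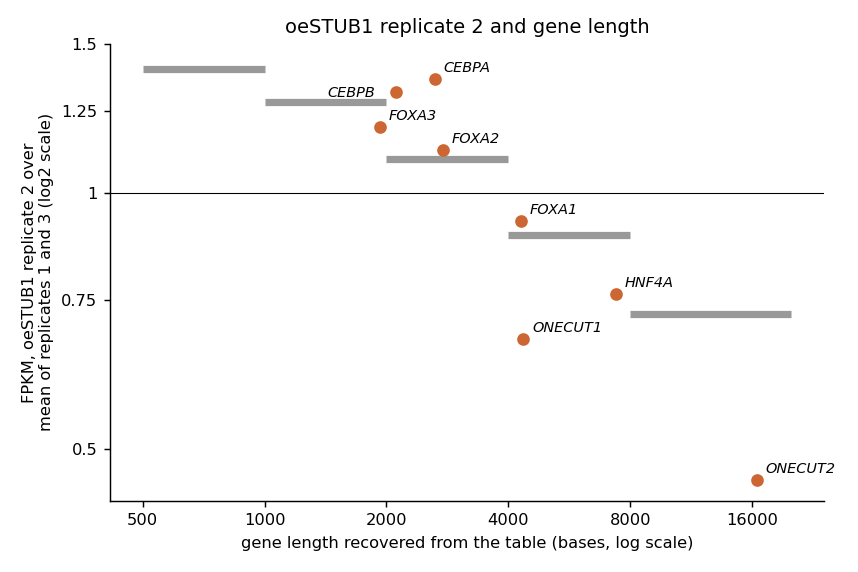
FPKM in oeSTUB1 replicate 2 over the mean of oeSTUB1 replicates 1 and 3 (y axis, log scale) against gene length in bases recovered from the table (x axis, log scale), with labelled points for the 8 genes and grey bars for the median of all genes in 5 length bins. The bins run from 1.40 for the shortest genes to 0.722 for the longest, with CEBPA at 1.36 and ONECUT2 at 0.459.

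Because FPKM is scaled to length, levels of different genes can be set side by side. In oeNC the order was CEBPB, FOXA2, HNF4A, FOXA1, CEBPA, FOXA3, ONECUT2 and ONECUT1. Libraries of neighbours in this order did not overlap, except those of FOXA3 and ONECUT2. CEBPB stood at the 94.1 percentile of tested genes, FOXA2 at the 77.7, HNF4A at the 70.5 and ONECUT1 at the 19.4. In oeSTUB1 CEBPB and FOXA2 remained the top genes, at 47.8 ± 8.84 and 13.1 ± 0.975 FPKM (SD, n = 3 each). Below them, FOXA1 and HNF4A overlapped with or without oeSTUB1 replicate 2. HNF4A and CEBPA overlapped through that library alone, at 4.30 and 5.73 FPKM, and without it their means were 5.65 and 4.20 FPKM with HNF4A above. FOXA3 and ONECUT2 overlapped in either setting. ONECUT2 and ONECUT1 overlapped through oeSTUB1 replicate 2 alone, and in replicates 1 and 3 ONECUT2 had 1.45 and 1.52 FPKM against 0.547 and 0.814 FPKM for ONECUT1.

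Ratios within a library cancel a change that scales all genes alike, but not the trend with gene length in oeSTUB1 replicate 2. The ratio of HNF4A to FOXA2 was 0.871, 0.808 and 0.533 in oeNC and 0.445, 0.305 and 0.455 in oeSTUB1, with no overlap. The ratio of FOXA2 to FOXA1 was 1.98 ± 0.221 in oeNC and 2.48 ± 0.355 in oeSTUB1 (SD, n = 3 each), and here the groups overlapped at 2.22 and 2.09. The ratio of CEBPB to CEBPA lay between 11.6 and 14.0 in oeNC libraries and between 9.94 and 10.5 in oeSTUB1 libraries. This ratio did not overlap, although each of its genes did. The ratio of FOXA2 to FOXA3 overlapped, at 8.03 to 9.03 in oeNC and 8.14 to 10.6 in oeSTUB1. So did that of ONECUT2 to ONECUT1, at 2.55 to 3.49 and 1.49 to 2.65. Among single tested genes the groups did not overlap in 38.8%, and nothing is read from the ratios that separated. The summed FPKM of the 3 FOXA genes was 24.6 ± 4.51 in oeNC and 19.9 ± 1.52 in oeSTUB1 (SD, n = 3 each). In bulk RNA, fewer cells expressing a gene and less RNA of it per cell cannot be told apart, for these and all other values.

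Over the 6 libraries, FOXA2 and FOXA3 followed each other with a Pearson r of 0.943 on the log2 scale, and FOXA1 and HNF4A with 0.870. CEBPA and ONECUT2 had an r of -0.745, the lowest among the 8. The genes most like HNF4A among 11368 genes were SLFN11, with group means of 9.58 ± 0.821 and 4.4 ± 0.670 FPKM (SD, n = 3 each), and ATP8B3, both with an r of 0.999. FOXA1 was most like MMD (0.999) and ADAMTSL5 (0.998), FOXA2 most like GDF15 (0.985) and TIFA (0.977), and FOXA3 most like ELF3 (0.979) and DDIT4 (0.968). ONECUT2 was most like FYCO1 (1.000) and GTPBP1 (0.999), and ONECUT1 most like GGCX (0.983) and LAMP2 (0.979). CEBPA was most like INTS11 (0.994) and PLGRKT (0.993), and CEBPB most like MED9 and IER5L (0.995 each). These are the highest of many correlations over 6 libraries that share depth and group, and they are given as a description. The trend with gene length in oeSTUB1 replicate 2 enters all of these correlations. That library's ratio to the mean of replicates 1 and 3 was 1.36 for CEBPA, of 2631 bases. It was 0.459 for ONECUT2, of 16433 bases. INTS11, most like CEBPA, had 2590 bases, and FYCO1, most like ONECUT2, had 12513. The part of gene length in these correlations was not tested.

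Genes beside the 8 were looked up in the RefSeq gene table. LINC01273, a long noncoding RNA gene before CEBPB on the same strand, fell from 7.48 ± 0.424 to 4.19 ± 0.806 FPKM (SD, n = 3 each; log2 fold change -0.84, SE 0.14, adjusted p = 0.0078 from limma). CEBPB itself had groups that overlapped through oeSTUB1 replicate 2 alone, with a log2 difference of -0.24, and of -0.38 without that library. CEBPA-DT, the divergent transcript of CEBPA, had a log2 fold change of -0.33 (adjusted p = 0.14) with groups that did not overlap. Without oeSTUB1 replicate 2 it passed, at -0.41 (adjusted p = 0.038 from limma). The other neighbours that were tested did not pass with or without that library, with MIPOL1 at -0.18 and TTC6 at -0.48 beside FOXA1, LINC00261 at -0.14 beside FOXA2, SYMPK at -0.02 and IRF2BP1 at 0.21 beside FOXA3, FECH at -0.01 beside ONECUT2 and R3HDML-AS1 at -0.05 beside HNF4A. MIPOL1, TTC6 and IRF2BP1, like CEBPA-DT, had groups that did not overlap, as had 38.8% of all tested genes. Opposite-strand genes overlap HNF4A and CEBPB, and their reads cannot be told apart without strand. HNF4A-AS1 was counted at 2, 1 and 3 fragments in oeNC and at 0 in oeSTUB1. CEBPB-AS1 was at 0.364 ± 0.0717 and 0.361 ± 0.158 FPKM (SD, n = 3 each). On chromosome 20, which carries HNF4A, FOXA2 and CEBPB, the median log2 fold change of 410 tested genes was 0.03, and on chromosome 14, which carries FOXA1, that of 496 genes was 0.05.

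Other transcription factors of the liver moved in both directions. Of a list of 23, 22 were in the table and 16 were tested, of which 4 rose and 2 fell. Over all tested genes, 7.01% rose and 6.59% fell, which makes 13.6% in either direction. The list's median log2 fold change was -0.04, beside 0.02 over all genes. NR1H4, the bile acid receptor FXR, fell by 1.52 on the log2 scale (limma adjusted p = 0.0012), and HLF, a clock-linked leucine zipper factor, fell by 1.33 (limma adjusted p = 0.0023). NR5A2, or LRH-1, a nuclear receptor of bile acid synthesis, rose most, from 3.63 ± 0.166 to 9.92 ± 0.851 FPKM (log2 fold change 1.42, SE 0.10, adjusted p = 0.00018 from limma, SD, n = 3 each). CEBPD, an acute phase C/EBP factor and the list's highest at 24.5 FPKM in oeNC, had a log2 fold change of 0.53 (adjusted p = 0.044). ATF5 had 0.45 (adjusted p = 0.018) and RXRA, which pairs with many nuclear receptors, 0.34 (adjusted p = 0.030 from limma). HNF4G, the paralog of HNF4A, was at 0.999 ± 0.107 and 1.09 ± 0.263 FPKM (log2 fold change 0.10, adjusted p = 0.76). ONECUT3 was below the minimum level, with 20, 28 and 19 fragments in oeNC and 1, 1 and 4 in oeSTUB1.

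When single libraries were left out, NR1H4, HLF and NR5A2 passed in every fit. CEBPD did not pass in 4 of the 6 fits, RXRA in 5 and ATF5 in 3, each in the same direction as with all libraries. Without oeSTUB1 replicate 2, 4 genes of the list fell and 4 rose, beside 12% and 14.8% of all genes (26.8% in either direction).

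Of the 11 coregulators of HNF4 and C/EBP proteins, all tested, 1 rose and 0 fell by limma, beside 7.01% and 6.59% of all tested genes. Their median log2 fold change was -0.25, and 0.04 without oeSTUB1 replicate 2. At an unadjusted p under 0.05, 2 were higher and 0 lower, and limma-voom on fragments also gave 1 and 0. TRIB2, a pseudokinase that leads CEBPA protein to degradation, rose from 0.128 ± 0.00932 to 0.398 ± 0.0139 FPKM (log2 fold change 1.13, SE 0.19, adjusted p = 0.0073 from limma, SD, n = 3 each). It was named after its values were seen, since it lay under the 0.5 FPKM set for naming. ATF4, a stress-response factor that can pair with C/EBP proteins and the list's highest at 35.0 ± 6.99 FPKM in oeNC, had a log2 fold change of -0.11 (adjusted p = 0.67), which was 0.05 without oeNC replicate 3.

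Hepatocyte genes, many of them known targets of HNF4A, FOXA and C/EBP proteins, were in many cases near 0 in these bile duct carcinoma cells. A set of hepatocyte genes was already known to differ here, and the counts that follow do not stand as evidence apart from it. Of 22 plasma protein genes, 20 were listed and 11 tested, of which 5 fell and 1 rose, with a median log2 fold change of -0.46. The fibrinogen genes were the highest. FGB fell from 97.5 ± 2.86 to 63.1 ± 9.93 FPKM (log2 fold change -0.64, SE 0.12, adjusted p = 0.011 from limma, SD, n = 3 each), and FGG had a log2 fold change of -0.46 (adjusted p = 0.027). The clotting factor genes F7 and F10 fell by 1.75 and fell by 2.1 on the log2 scale (limma adjusted p = 0.0006 and 0.00084). F10, at 0.710 and 0.0893 FPKM, reached the minimum level through oeNC alone, so its fall is tied to its being tested. AHSG, which encodes fetuin-A, had -1.44 (adjusted p = 0.035). RBP4, the retinol carrier, was the exception at 1.18 (adjusted p = 0.012 from limma). FGA had -0.38 (adjusted p = 0.080) and APOH -0.55 (adjusted p = 0.063), and neither passed. Without oeSTUB1 replicate 2 APOH passed at -0.65 (adjusted p = 0.023 from limma), and the list had 7 lower, beside 12% of all tested genes. ALB was at 0.0327 and 0.0388 FPKM and AFP at 0.00396 and 0.00399 FPKM.

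Of 22 genes for hepatocyte enzymes and transporters, 18 were listed and 6 tested, of which 4 fell and 0 rose by limma. The shares over all tested genes were 6.59% and 7.01%. At an unadjusted p under 0.05, 5 were lower and 0 higher, and limma-voom gave 4 and 0. CPS1, the first enzyme of the urea cycle, fell from 96.6 ± 2.90 to 43.7 ± 9.92 FPKM (log2 fold change -1.17, SE 0.16, adjusted p = 0.0031 from limma, SD, n = 3 each). HPD, an enzyme of tyrosine breakdown, fell from 8.67 ± 0.403 to 1.54 ± 0.0161 FPKM (log2 fold change -2.42, SE 0.09, adjusted p = 2.2e-05). UGT2B7, a glucuronidation enzyme, fell by 2.85 and ASGR1, the asialoglycoprotein receptor subunit, fell by 2.45 on the log2 scale (limma adjusted p = 0.00017 and 0.00063). The list's median was -1.79 over 6 genes that passed the minimum level. Its other 2 tested genes had log2 fold changes of -0.65 (CYP2E1) and 0.31 (TDO2). The list summed to between 114 and 120 FPKM in oeNC libraries and between 37.7 and 56.1 FPKM in oeSTUB1 libraries. F7, F10, CPS1, HPD, UGT2B7 and ASGR1 passed in every fit that left out a library. FGB and RBP4 did not pass without oeNC replicate 1 or 2 (adjusted p from 0.054 to 0.055), and FGG and AHSG not without oeNC replicate 1, 2 or 3 (0.089 to 0.12).

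**Figure D4:**
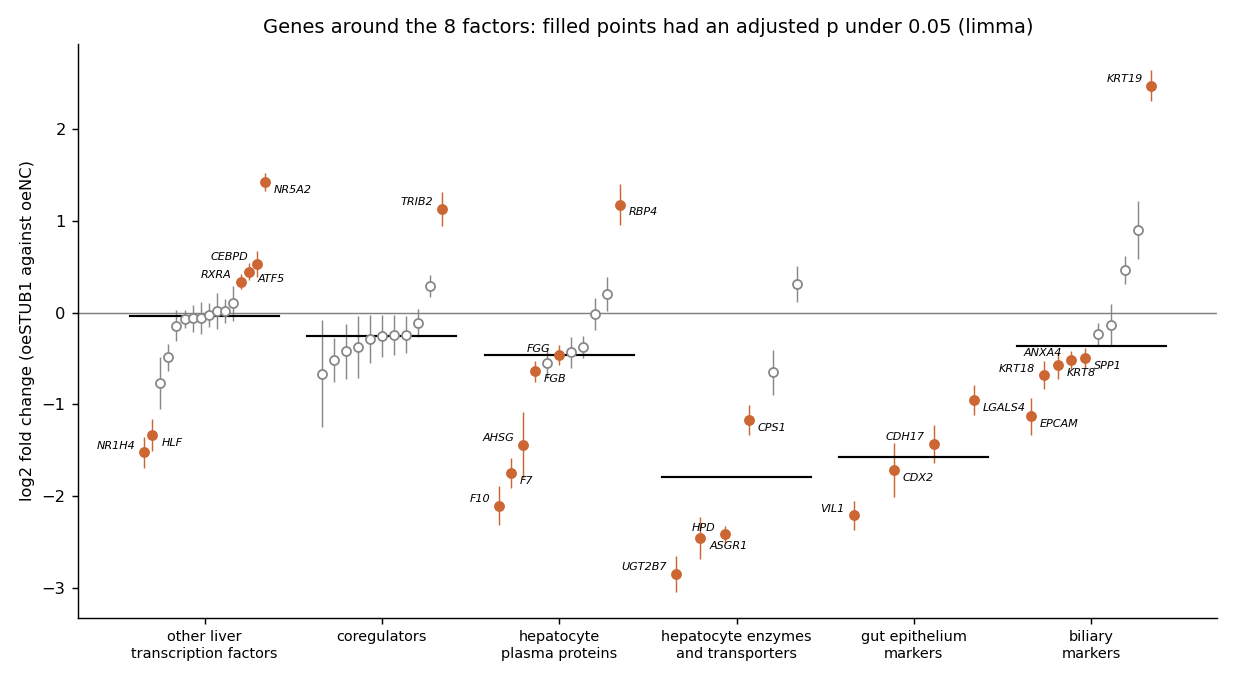
Log2 fold change (y axis, oeSTUB1 against oeNC) of each tested gene in 6 lists around the 8 transcription factors, with filled orange points for an adjusted p under 0.05 from limma, open grey points for the rest, vertical bars for the SE and black lines for list medians. The medians were -0.04, -0.25, -0.46, -1.79, -1.57 and -0.36 from left to right, with NR5A2 at 1.42 and UGT2B7 at -2.85 among the filled points.

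The cells were checked against markers of bile duct and of other cell types. KRT18, KRT8 and KRT7, keratins of simple and ductal epithelium, were at 3964 ± 111, 3216 ± 173 and 502 ± 23.0 FPKM in oeNC (SD, n = 3 each). KRT7 had a log2 fold change of 0.47 (adjusted p = 0.082), and passed without oeSTUB1 replicate 2 at 0.30 (adjusted p = 0.013 from limma). KRT19, a defining biliary keratin, was low at 0.453 ± 0.0776 FPKM in oeNC and rose to 2.97 ± 0.454 FPKM in oeSTUB1 (log2 fold change 2.47, SE 0.17, adjusted p = 0.00018 from limma). CFTR, the ductal chloride channel, was at 0.00149 and 0.00321 FPKM, so that 2 defining markers were low or near 0. The listed markers AQP1, at 0.245 and 0.214 FPKM, and CLDN4, at 0.274 and 0.564 FPKM, were low too. Of 10 tested biliary markers of 11, 5 fell and 1 rose, beside 6.59% and 7.01% of all tested genes. EPCAM had a log2 fold change of -1.13 (adjusted p = 0.010), KRT18 -0.68 (0.024), KRT8 -0.57 (0.037), ANXA4 -0.51 (0.013) and SPP1 -0.49 (0.026, all from limma). KRT19 and EPCAM passed in every fit that left out a library. ANXA4 did not pass without oeNC replicate 1, 2 or 3 (adjusted p from 0.061 to 0.067), and KRT18, KRT8 and SPP1 passed, of those fits, in that without oeSTUB1 replicate 2 alone. The list summed to between 7605 and 8198 FPKM in oeNC libraries and between 4856 and 6440 FPKM in oeSTUB1 libraries. Of 6 gut epithelium markers, 4 were listed and all 4 fell, with 0 higher by limma, by limma-voom and at an unadjusted p under 0.05. Over all tested genes, 6.59% fell by limma. VIL1 had a log2 fold change of -2.21 (adjusted p = 0.0002), CDX2 -1.71 (0.0082), CDH17 -1.43 (0.0037) and LGALS4 -0.95 (0.0082, all from limma). The size for CDX2, at 0.309 ± 0.113 and 0.0219 ± 0.0157 FPKM (SD, n = 3 each), depended on the pseudocount, with -0.35 at a pseudocount of 1, -3.35 at 0.01 and -3.73 by limma-voom, and it passed in each. CDX2 reached the minimum level through oeNC alone, so its fall is tied to its being tested. LGALS4 did not pass without oeNC replicate 2 (adjusted p = 0.050). The gut list summed to 14.2 to 15.5 FPKM in oeNC and 3.94 to 6.83 FPKM in oeSTUB1. The part of these epithelial markers in the HNF4A and FOXA1 values was not tested.

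Of 8 fibroblast markers 2 were tested, of 4 endothelial markers 1 and of 4 leukocyte markers 3. With all libraries, 0 of these 6 passed by limma or limma-voom. Without oeSTUB1 replicate 2, the fibroblast marker LUM passed at -1.30 (adjusted p = 0.025 from limma). LUM, at 0.220 and 0.0596 FPKM, reached the minimum level through oeNC alone. COL1A1, at a log2 fold change of 0.75, passed with the replicate number as a block (adjusted p = 0.020 from limma). At an unadjusted p under 0.05, 1 fibroblast marker was higher and 1 lower. Fibroblast markers summed to between 1.31 and 2.36 FPKM in oeNC libraries and between 2.16 and 4.05 FPKM in oeSTUB1 libraries, with COL1A1 the highest. The sums were 0.0713 to 0.0973 and 0.0974 to 0.231 for endothelial markers, with PECAM1 the highest, and 5.26 to 7.84 and 6.61 to 7.44 for leukocyte markers, with CD14 the highest, with group means of 5.05 and 5.24 FPKM. DCN, VWF, CDH5 and KDR were each under 0.1 FPKM in both groups.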

How the data were processed

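RNA-seq of 6 TFK1 libraries, 3 oeNC and 3 oeSTUB1, was analysed, with groups taken from the sample labels. The authors deposited FPKM values for 23569 genes. The submitters' processing notes name fastp 0.20.1, HISAT2 2.1.0, HTSeq 0.11.2, R 3.2.0, DESeq2 1.22.2 and GRCh38.p13, and the annotation and strand setting are not given in the sources used here. Whole fragments and gene lengths were recovered from the FPKM steps for 23569 of 23569 genes (tolerance 0.0005), although a gene's fragments may be understated by a shared factor. Fragments on listed genes made up 99.7% of each total. The 15353 genes averaging 0.1 FPKM or more were tested on log2(FPKM + 0.1), which understates changes of low genes, by limma 3.58.1 under R 4.3.3 (lmFit, then eBayes with trend, two-sided). Benjamini-Hochberg adjustment was over these genes, and a gene rose or fell at an adjusted p under 0.05.

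The 8 genes, the gene lists and the tests were chosen with earlier results of these data known. Besides the 8 genes and STUB1, the text names genes of the lists that passed, up to 6 per direction, with at least 0.5 FPKM in the higher group, the highest member of each list, the 2 genes most correlated with each of the 8, and neighbours. Further list and marker genes were added after their values were seen. NR1I3, F9, APOC3, G6PC1, FABP1, CYP7A1, CYP8B1, CDX1 and PHGR1 had no row under these symbols. A few genes once on these lists were taken off them and are not reported here.

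In simulated data 200 of 200 genes changed 4-fold were called with the right sign among 15350 tested, with 10 unchanged genes called, and fragments of 98.6% of 22611 genes were recovered in every library. The simulation gave all genes and libraries the same dispersion, with no deviating library and no trend with gene length. It therefore checks the steps and does not tell how many smaller changes or false calls these libraries would give. Alternatives were pseudocounts of 1 and 0.01, no minimum level, a minimum of 1 FPKM, median-ratio scaling, quantile normalization, the replicate number as a block, limma-voom on recovered fragments, leaving out each library and, chosen after seeing the data, a lowess correction for gene length. Gene positions are from GENCODE release 29 (GRCh38), promoters, neighbours and chromosomes from RefSeq tables of GRCh38.p14, which placed 96.7% of tested genes. Python 3.11.15 with numpy 2.4.6, pandas 2.3.3 and matplotlib 3.10.9 was used for the other steps.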

Additional observations from a re-analysis of the deposited data

How the results depend on the processing

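For the 8 transcription factors, 0 of 119 values under the alternatives moved from the main value by more than the spread between libraries, although ONECUT1 and CEBPA changed sign within it. For many of these values this was fixed in advance. Leaving out 1 of 3 libraries cannot shift a difference by that much, and the replicate block and the minimum level leave it unchanged. ONECUT2 still went from -0.46 to -0.12 without oeSTUB1 replicate 2. ONECUT1 has no value at a minimum of 1 FPKM. Over all genes, 1076 rose and 1012 fell. With the correction for gene length, chosen after seeing the data, these were 1675 and 1647, and when each library was left out they ran from 477 to 2274 and from 456 to 1838, both highest without oeSTUB1 replicate 2. The cause was not tested. The replicate numbers were no pairing in the labels. Same-numbered libraries had correlations of deviations of -0.149, -0.083 and 0.147, and the other pairs ran from -0.223 to 0.232. With 3 libraries a group, these values cannot tell whether same-numbered libraries shared a culture or batch. With the replicate block 741 genes rose and 747 fell, and the 8 differences were as without it. FGG (adjusted p = 0.053 from limma) and RXRA (0.087) did not pass with the block, nor did KRT18 (0.062) and KRT8 (0.088), which left 3 biliary markers lower in place of 5.

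With each library left out, the median of the other liver transcription factors lay between -0.104 and 0.0976, the last without oeNC replicate 3. That of the plasma proteins was -0.18 with no minimum level. That of the enzymes and transporters was -1.47 with a pseudocount of 1, -0.13 with no minimum level, -2.43 at a minimum of 1 FPKM and -1.84 with median-ratio scaling, and from -1.80 to -1.69 with a library left out. The minimum level changes how many genes enter a median, and for the other shifts the cause was not tested.

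Counts of list genes changed as follows. Of the other liver transcription factors, 2 rose with median-ratio scaling and 1 to 4 with a library left out, and 1 fell at a minimum of 1 FPKM, 4 with the length correction and 2 to 4 with a library left out. The plasma proteins had 2 lower at a minimum of 1 FPKM, 8 with the length correction and 2 to 7 with a library left out, with 0 to 1 higher. At a minimum of 1 FPKM 0 coregulators rose and 2 gut markers fell, where fewer genes were tested. The biliary markers had 3 lower with no minimum level and 1 to 5 with a library left out, and 2 higher with quantile normalization or the length correction and 1 to 2 with a library left out. ATF4, the reversed gene, ran from -0.223 without oeSTUB1 replicate 2 to 0.0462 without oeNC replicate 3. With a pseudocount of 1 in place of 0.1, log2 fold changes of low genes shrank by over 1.5 times while still passing, for NR1H4 to -0.78, HLF to -0.86, F7 to -0.85, F10 to -0.65, AHSG to -0.62, RBP4 to 0.64, UGT2B7 to -1.79, VIL1 to -1.09, CDX2 to -0.35, LGALS4 to -0.39, KRT19 to 1.445 and TRIB2 to 0.31. Of 29 named genes that passed, 17 did so under each of the 15 alternatives that tested them. With median-ratio scaling 885 genes rose and 1164 fell.

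With 3 libraries a group and 33106564 to 36744521 fragments each, the spread between libraries sets the precision, and for ONECUT1, at 66 to 121 fragments, counting error adds to it.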
